A study of Caenorhabditis elegans with 2 samples.

Results

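Chaperones of the Hsp70 family bind unfolded stretches of other proteins and release them in cycles driven by ATP, and each compartment of the cell has Hsp70 genes of its own. In the cytosol Hsp70 works with Hsp110, which helps it exchange nucleotide, in the endoplasmic reticulum (ER) the Hsp70 is called BiP, and in the mitochondrion Hsp70 hands proteins to the barrel-shaped chaperonin Hsp60. Stress in each compartment raises the transcription of its own chaperones, through the heat shock factor for the cytosol, the IRE-1 and XBP-1 branch of the unfolded protein response for the ER, and the factor ATFS-1 for the mitochondrion.

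The 6 genes described here were taken from 19973 nuclear protein-coding genes of Caenorhabditis elegans, 2 for each compartment. They were hsp-1 (the constitutive Hsp70) and hsp-110 of the cytosol, hsp-3 and hsp-4 (both BiP genes) of the ER, and hsp-6 (mitochondrial Hsp70) and hsp-60 of the mitochondrion. They were selected on the presence and signal of summits in these peak lists, so which of them had a called region is a description of the choice and was not tested. Of these genes, hsp-1, hsp-3 and hsp-60 had a called region within 2 kb of a transcription start site (TSS), and hsp-110, hsp-4 and hsp-6 did not. Of all protein-coding genes 1.46% did.

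The data were chromatin immunoprecipitation sequencing (ChIP-seq) of UNC-39, a homeodomain transcription factor related to mammalian Six4 and Six5 that acts in mesoderm, in migrating cells and in interneurons. There was 1 group, mixed-stage embryos of both sexes from strain OP186, genotype unc-119(ed3) III with the insertion wgIs186, which carries eGFP-tagged unc-39, in 2 biological replicates. Both libraries carry the same mutation and insertion, the labels do not say which promoter drives the tagged protein, and a signal from whole embryos cannot be assigned to a cell type or to a share of cells. On build ce11 the list that passed the irreproducible discovery rate (IDR) threshold held 267 regions, called regions below, while the relaxed lists held 9046 regions for the pooled replicates, 15880 for replicate 1 and 30000 for replicate 2. Each region has a summit, its point of highest enrichment, and a signal, the score given by the authors' peak caller, which was compared only within a list. The 267 called regions were the 267 strongest of the pooled list, with signals of 44.4 and above (median 54.6), against a median of 22 in the whole pooled list. Relaxed lists hold background by design, and read depth is unknown from these files.

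The strongest region at these genes was in the promoter of hsp-3, the BiP gene that is expressed largely without stress. Its called region had its summit 72 bp upstream of the most upstream of 3 annotated TSSs of hsp-3 (WBGene00002007, chrX:6089028-6092124, minus strand). The sequence from that TSS to 201 bp upstream (chrX:6092125-6092325, minus strand, RefSeq WBcel235) is shown because it holds the summit and both motif matches of this gene, in capitals.

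hsp-3 upstream: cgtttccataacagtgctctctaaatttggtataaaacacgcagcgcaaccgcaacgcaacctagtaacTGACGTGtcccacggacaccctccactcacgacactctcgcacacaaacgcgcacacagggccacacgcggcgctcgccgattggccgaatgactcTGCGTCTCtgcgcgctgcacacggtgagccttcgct

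The capitals mark TGACGTG, the core of the unfolded protein response element (UPRE) to which mammalian XBP1 binds, starting 132 bp before the TSS, and TGCGTCTC, the reverse strand of GAGACGCA, starting 36 bp before it. GAGACGCA is a sequence with no assigned factor here, searched because it was already known to recur at called summits in these data. Relative to the summit, the UPRE core began 60 bp upstream and the other match 36 bp downstream. The nearest other protein-coding TSS was that of C15H9.5, 1104 bp away, much farther than that of hsp-3.

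The called region of hsp-1 lay upstream of a gene with a single annotated TSS (WBGene00002005, chrIV:17278959-17281330, plus strand), and that of hsp-60 lay between this gene and a divergent neighbour (WBGene00002025, chrIII:1619742-1625803, plus strand). The windows of 201 bp centred on both summits follow, at chrIV:17278478-17278678 and chrIII:1618981-1619181, each on the plus strand. Capitals mark the motif matches, which carry the comparison with the promoters of the genes that had no called region.

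hsp-1 summit: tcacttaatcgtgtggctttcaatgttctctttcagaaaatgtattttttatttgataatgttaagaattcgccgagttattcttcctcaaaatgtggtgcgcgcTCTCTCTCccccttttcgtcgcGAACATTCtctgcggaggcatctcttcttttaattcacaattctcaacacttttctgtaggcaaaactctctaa
hsp-60 summit: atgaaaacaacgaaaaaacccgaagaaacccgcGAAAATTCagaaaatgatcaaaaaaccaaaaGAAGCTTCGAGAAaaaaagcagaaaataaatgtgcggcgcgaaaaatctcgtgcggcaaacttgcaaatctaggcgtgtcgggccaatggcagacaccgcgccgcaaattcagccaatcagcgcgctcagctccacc

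In hsp-1 the capitals are a GA repeat, TCTCTCTC on this strand, 5 bp after the summit, and GAACATTC, a match to the heat shock element, 27 bp after it. In hsp-60 they are 3 matches to the heat shock element, GAAAATTC at 67 bp and the overlapping GAAGCTTC and TTCGAGAA at 36 and 31 bp before the summit. The heat shock element, to which the heat shock factor binds as a trimer, was searched as GAANNTTC or TTCNNGAA on either strand.

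For the genes without a called region the stretches shown are the summit window of hsp-110 (WBGene00016250, chrIII:8443910-8446909, minus strand), at chrIII:8447058-8447258, and the 201 bp upstream of hsp-4 (WBGene00002008, chrII:7350112-7352645, minus strand), at chrII:7352646-7352846. Both are read on the minus strand. They are the counterparts of hsp-1 in the cytosol and hsp-3 in the ER, each in the window type shown for that gene. The hsp-110 window shares the heat shock element with that of hsp-1 but not the GA repeat. The hsp-4 window shares the UPRE core with that of hsp-3 but not GAGACGCA, and it holds a heat shock element that the hsp-3 window lacks. The summit windows of hsp-4 and hsp-6, and the upstream window of hsp-6, held no match and are not shown.

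hsp-110 summit: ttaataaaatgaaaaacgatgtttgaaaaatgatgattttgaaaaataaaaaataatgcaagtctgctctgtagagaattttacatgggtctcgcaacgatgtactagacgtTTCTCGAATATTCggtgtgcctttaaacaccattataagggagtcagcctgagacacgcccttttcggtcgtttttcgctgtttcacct
hsp-4 upstream: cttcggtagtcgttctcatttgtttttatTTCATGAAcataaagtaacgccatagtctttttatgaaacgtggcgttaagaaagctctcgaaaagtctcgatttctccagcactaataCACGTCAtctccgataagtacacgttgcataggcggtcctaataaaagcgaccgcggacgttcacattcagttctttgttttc

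In hsp-110 the overlapping heat shock element matches TTCTCGAA and GAATATTC began 12 and 17 bp after the summit. In hsp-4 the capitals are TTCATGAA, a heat shock element match 172 bp before the TSS, and CACGTCA, the UPRE core on the reverse strand, 83 bp before it. The UPRE core thus stood in the upstream 201 bp of both BiP genes, at 132 bp in hsp-3 and 83 bp in hsp-4, while a called summit lay within 2 kb of hsp-3 only among these genes of the ER.

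Counted by compartment, a called summit within 2 kb was found at 1 of 2 members in the cytosol (hsp-1), 1 of 2 in the ER (hsp-3) and 1 of 2 in the mitochondrion (hsp-60). That is 3 of 6 members, against 292 of all 19973 protein-coding genes (1.46%). Because the members were chosen with this list known, nothing is read from the difference. In the pooled list every member had at least 1 summit within 2 kb, 2 of 2 in each compartment, against 33.5% of all genes. In the replicate 1 list 5 of 6 members had a summit, all but hsp-6, against 51.3% of all genes, and in the replicate 2 list 6 of 6 did, against 73.5%. Both replicate lists had a summit at 5 of 6 members, against 42.4% of all genes. When a called summit was given only to the protein-coding TSS nearest to it, hsp-1 and hsp-3 kept theirs and hsp-60 did not, which left 2 of 6 members against 0.951% of all genes. With 2 genes chosen in each compartment, these counts say nothing of compartments in general.

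**Figure D1:**
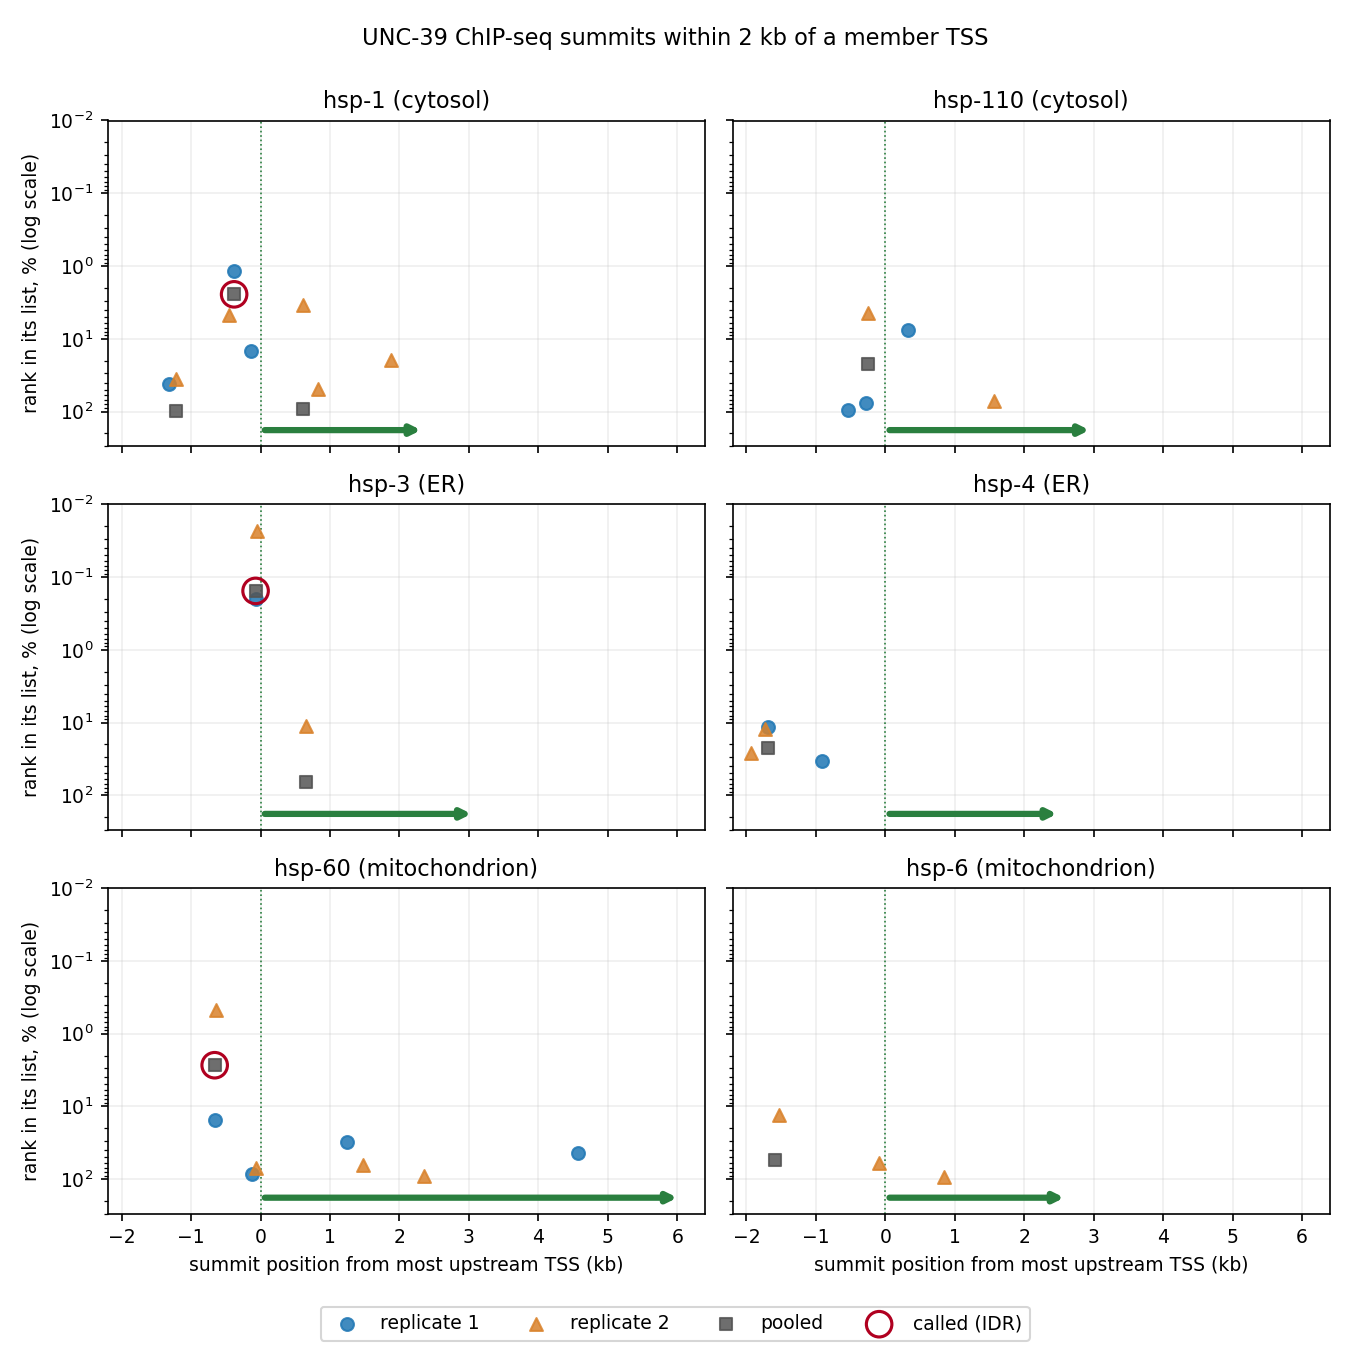
Summits of the UNC-39 ChIP-seq lists within 2 kb of any TSS of each gene. The x axis is the position from the most upstream TSS in kb, read along the gene, and the y axis is the rank of the region as a percent of its list on a log scale, with the strongest at the top. Circles are replicate 1, triangles replicate 2, squares the pooled list and red rings called regions, and the green arrow is the gene. The hsp-3 summits at 72, 71 and 58 bp upstream stand highest, and hsp-4 and hsp-6 have no pooled summit nearer than 1582 bp to their TSS.

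By pooled signal the order was hsp-3 at 103.0, hsp-1 at 47.3, hsp-60 at 45.9, hsp-110 at 26.5, hsp-4 at 26.5 and hsp-6 at 21.5. The lowest called signal was 44.4, so hsp-60 lay just inside the threshold, and hsp-110 was the closest member outside it. Among all genes with a pooled summit within 2 kb the median of the strongest signal was 22.5, which 5 members exceeded and hsp-6 did not reach.

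By the strongest region of each gene within 2 kb, both replicates gave hsp-3 the first place and hsp-6 the last. Between them came hsp-1, hsp-110 and hsp-4 in that order, and the place of hsp-60 differed. In replicate 1 the strongest signals were 47.4 for hsp-3, 29.6 for hsp-1, 18.7 for hsp-110, 17 for hsp-4 and 16.06 for hsp-60, with no region at hsp-6. In replicate 2 they were 51.9 for hsp-3, 26.4 for hsp-60, 16.52 for hsp-1, 15.6 for hsp-110, 12.4 for hsp-4 and 12.15 for hsp-6. By this measure the place of hsp-60 is not settled by these 2 libraries. It stood below hsp-1, hsp-110 and hsp-4 in replicate 1 and above all of them in replicate 2. The strongest regions of hsp-1 and of hsp-110 were different ones in the 2 replicates. Where only regions overlapping the strongest pooled region are taken, replicate 1 had hsp-110 at 10.7, below hsp-4 at 17. Replicate 2 then had hsp-1 at 15.3, below hsp-110 at 15.6. The order of hsp-1, hsp-110 and hsp-4 was thus not shared for the same regions.

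Among the ER genes, hsp-3 ranked 14 of 267 called regions and 14 of 9046 pooled regions, or 0.155% of that list. The strongest pooled summit of hsp-3 placed it 18 among all genes ordered this way, so that it was near the top both among regions and among genes. In replicate 1 its summit lay 71 bp upstream with a signal of 47.4 and rank 32 of 15880 (0.202%). In replicate 2 the summit lay 58 bp upstream with a signal of 51.9 and rank 7 of 30000 (0.0233%). Both libraries thus had the region near the top of their lists and close to the TSS. The 2 summits were 13 bp apart, against a median of 32 bp over the 265 called regions that overlap a region in both replicates. A second, weak region was found inside the gene, in a coding exon 312 bp past its closest TSS, with pooled signal 20.4 (rank 6017) and, in replicate 2, 12.63 (rank 3378). The region upstream of hsp-3 was placed next to those of ftt-2, which encodes a 14-3-3 protein (rank 13, signal 103.8), and T02E1.2 (rank 18, signal 99.3), the nearest called regions above and below it with a protein-coding TSS within 1 kb.

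The other BiP gene, hsp-4, the one strongly induced by the unfolded protein response in this animal, had no region at its promoter in the pooled list. The strongest pooled summit lay 1684 bp upstream with a signal of 26.5, rank 1999 of 9046 (22.1%), inside a coding exon of the neighbouring gene haf-2, a transporter gene of the ABC half-transporter type. Replicate 1 had it 1683 bp upstream with a signal of 17 (rank 1838, 11.6%), and replicate 2 had it 1729 bp upstream with 12.4 (rank 3686, 12.29%). The rank percents were thus close, while the plain ranks differed 2.01-fold between lists of unequal length. Replicate 1 also had a region 905 bp upstream (signal 13.4, rank 5411) and replicate 2 another 1939 bp upstream (signal 10.1, rank 7921). The nearest called summit to hsp-4 was 151.1 kb away. No list had a summit in the 201 bp upstream of hsp-4, where its UPRE core stands.

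In the cytosol, hsp-1 had its called summit 381 bp upstream, in the region chrIV:17278390-17278765, with a signal of 47.3, rank 222 of 267 called regions and 2.45% of the pooled list. The summit was intergenic, and the start of the noncoding RNA gene F26D10.23 was 165 bp from it, nearer than that of hsp-1. The nearest other protein-coding TSS, that of the C-type lectin gene clec-196, was 1041 bp away. Replicate 1 had its summit at the same base, 381 bp upstream, with a signal of 29.6 and rank 188 (1.18%). Replicate 2 had the overlapping region 460 bp upstream with a signal of 15.3 and rank 1412 (4.71%), so its summit was 79 bp from that of replicate 1. The upstream region was thus higher in the replicate 1 list than in the replicate 2 list. The strongest region of hsp-1 in replicate 2 was another, in a coding exon 610 bp downstream, with a signal of 16.52 and rank 1033 (3.44%). That exon region was found in the pooled list 604 bp downstream near the bottom, with a signal of 18.7 and rank 8348, and replicate 1 had no region overlapping it. In all, hsp-1 had 5 summits in replicate 2 and 3 in replicate 1, from 1312 bp upstream to 1879 bp downstream. Its neighbours in called rank were Y59A8B.24 (rank 218, signal 47.4) and snrp-40.1 (rank 223, signal 47.3), named for a small nuclear ribonucleoprotein.

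For hsp-110 the pooled summit lay 249 bp upstream with a signal of 26.5, rank 1987 (22%). This position is closer to 2 other genes than to hsp-110, namely rpn-3, a proteasome subunit gene with its TSS 195 bp away, and the noncoding RNA gene C30C11.14, 63 bp away. Replicate 2 had it 245 bp upstream with a signal of 15.6 and rank 1324 (4.41%), and replicate 1 had it 277 bp upstream with 10.7 and rank 12246 (77.1%). The region was therefore in the upper part of the replicate 2 list and in the lower part of the replicate 1 list. In replicate 1 the strongest region of hsp-110 was in a coding exon, 333 bp downstream, with a signal of 18.7 and rank 1197 (7.54%), and replicate 2 had no summit there. The nearest called summit was 29.3 kb away.

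In the mitochondrial pair, the called summit of hsp-60 lay 661 bp upstream, in the region chrIII:1618893-1619268, with a signal of 45.9, rank 246 of 267 and 2.72% of the pooled list. The same summit was 0.152 kb upstream of Y22D7AL.10, the divergent neighbour, which RefSeq annotates as the mitochondrial Hsp10, the lid of the Hsp60 chaperonin. Both subunits of this chaperonin thus share 1 called region, and it is counted for each of them. Replicate 1 had the summit at the same base with a signal of 16.06 and rank 2445 (15.4%), and replicate 2 had it 636 bp upstream of hsp-60 with 26.4 and rank 141 (0.47%). The shared region was thus much higher in the replicate 2 list. Closer to the hsp-60 TSS there were weak regions alone, 128 bp upstream in replicate 1 (signal 10.3, rank 13567) and 60 bp upstream in replicate 2 (signal 6.98, rank 21394), and none in the pooled list. Other regions lay in introns, the strongest with a signal of 13.7 in replicate 1. Called regions next to it in rank were near tba-7, an alpha tubulin gene (rank 244, signal 46), and T15B12.1 (rank 247, signal 45.9).

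The other mitochondrial gene, hsp-6 (WBGene00002010, chrV:4824124-4826760, minus strand), had the weakest values of the set. Its pooled summit lay 1582 bp upstream with a signal of 21.5 and rank 4919 (54.4%), in a coding exon of C37H5.5, whose TSS is closer, at 982 bp. Replicate 2 had it 1538 bp upstream with a signal of 12.15 and rank 3932 (13.1%), and replicate 1 had no region within 2 kb. The values at this gene thus come from 1 library and the pooled list. In replicate 2 alone a weak region lay 92 bp upstream, with a signal of 7.53 and rank 18081, and another in a coding exon 848 bp downstream with 6.02 and rank 28465. The nearest called summit was 95.2 kb away. The 201 bp upstream of hsp-6 held none of the motifs searched.

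The spread between replicates was above the median of called regions at all 3 called members. Dividing the larger by the smaller rank percent of a region in the 2 replicate lists gave 3.98 for hsp-1, 8.64 for hsp-3 and 32.8 for hsp-60, against a median of 3 over the 265 called regions with a region in both. A ratio at least as large was found at 112 called regions for hsp-1, 60 for hsp-3 and 16 for hsp-60. A rank percent depends on the length of its list, and the replicate 2 list holds exactly 30000 regions, which may be a limit set when it was made. With plain ranks the ratios were 7.51 for hsp-1, 4.57 for hsp-3 and 17.3 for hsp-60, so hsp-1 and hsp-3 changed order. For hsp-3 the ratio compares ranks 32 and 7, both near the top, while for hsp-60 it compares rank 2445 and rank 141. By signal, hsp-3 and hsp-60 ranked higher in replicate 2 and hsp-1 in replicate 1. Ranked by the q-value in place of the signal, hsp-3 stood at 0.337% in replicate 1 and 0.417% in replicate 2, so its direction turned and its ratio was 1.24. Of the regions not called, the ratio was 17.5 for hsp-110 and 1.06 for hsp-4. Whether depth or enrichment differed between the libraries was not tested, as the lists hold neither.

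**Figure D2:**
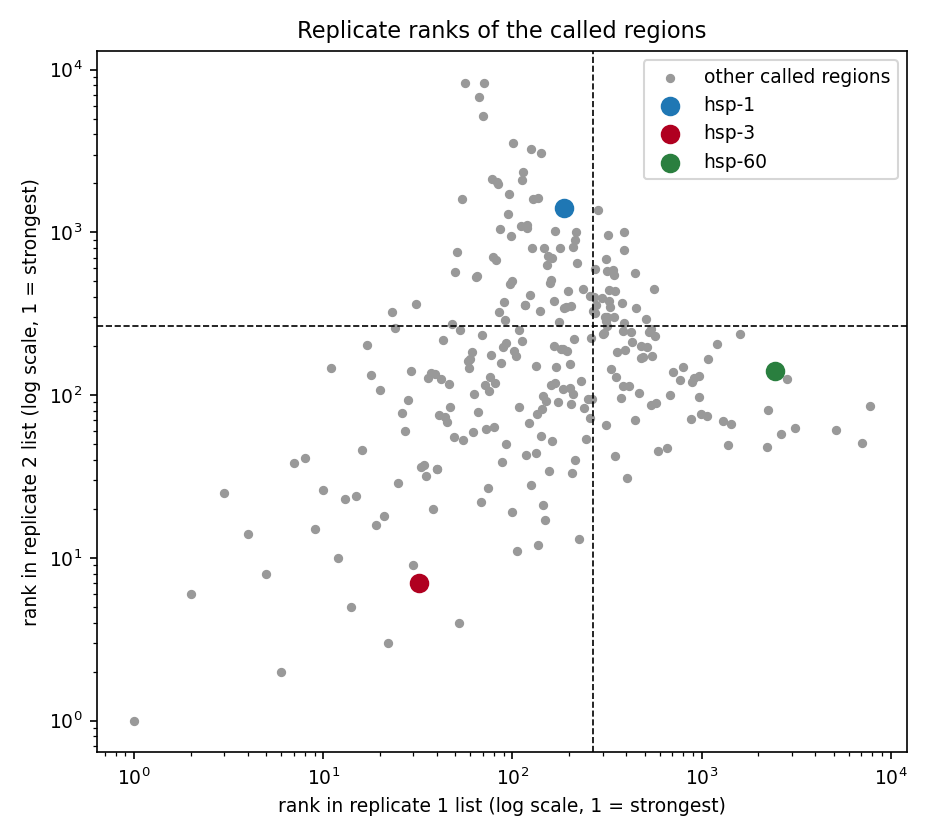
Rank of each called region in the replicate 1 list (x axis) and the replicate 2 list (y axis), both on log scales with 1 the strongest, for called regions that overlap a region in both. Grey points are other called regions, coloured points the 3 called members, and dashed lines mark rank 267. The hsp-3 point (32 and 7) is inside both lines, hsp-1 (188 and 1412) is outside the line of replicate 2, and hsp-60 (2445 and 141) is far outside the line of replicate 1.

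Each compartment's motifs were then set beside those of all regions, in windows of 201 bp. A heat shock element match was present in the summit windows of 3 of 6 members (hsp-1, hsp-60 and hsp-110). At least 1 such match was present at 10.9% of called summits, 20.5% of pooled summits and 22% of the upstream windows of all genes. A single match is thus a common sequence in promoters. How often matches overlap, as they do at hsp-60 and hsp-110, was not counted over all regions. A UPRE core was present at 1 of 6 summits (hsp-3), against 3.37% of called summits, 2.48% of pooled summits and 2.02% of upstream windows. The GA repeat, at hsp-1, was present at 12.7% of called summits, 4.9% of pooled summits and 2.75% of upstream windows. GAGACGCA, at hsp-3, was present at 10.9% of called summits, 3.53% of pooled summits and 2.59% of upstream windows. The sequence TGACACC, the core of the motif of human SIX4, was in none of the 6 summit windows. It was present at 4.87% of called summits, 3.47% of pooled summits and 1.5% of upstream windows. No motif was shared by the 3 called members, and the summit windows of hsp-4 and hsp-6 held no match. A match is a string of letters, and its use by any factor was not tested.

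The pattern in the upstream windows differed from that at the summits. Upstream of hsp-1 and hsp-110 the same arrangement was found, overlapping pairs of heat shock elements that share TTCTAGAA, starting 144 and 139 bp before the TSS of hsp-1 and 115 and 110 bp before that of hsp-110. No pooled summit fell in either window. Replicate 1 alone had a summit in that of hsp-1, 140 bp upstream and at these matches, with a signal of 16.21 and rank 2338 (14.7%). For hsp-60 the 201 bp upstream of its own TSS held no match, and its 3 heat shock elements stood at the shared summit nearer to Y22D7AL.10. Only at hsp-3 did the strongest pooled summit fall inside the upstream 201 bp.

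**Figure D3:**
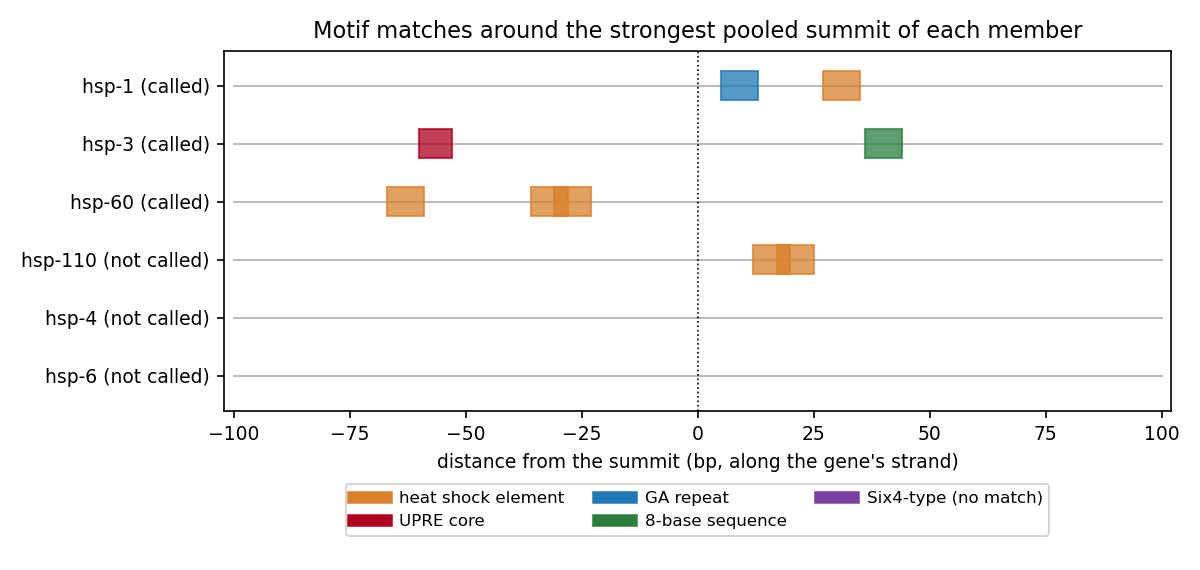
Positions of motif matches within 100 bp of the strongest pooled summit of each gene, with the distance from the summit in bp along the gene's strand on the x axis and 1 row per gene. Coloured boxes are matches to the heat shock element, the UPRE core, the GA repeat and the 8-base sequence GAGACGCA. Heat shock element matches lie after the summit in hsp-1 and hsp-110 and before it in hsp-60, the UPRE core of hsp-3 lies 60 bp before its summit, and hsp-4 and hsp-6 have none.

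Base composition separated hsp-3 from the others. Its summit window was 60.7% G and C, a value reached or exceeded by 5 of the 267 called windows, which averaged 47.2% ± 6.37 (SD, n = 267). The remaining summit windows had 46.8% in hsp-60, 43.8% in hsp-6, 38.8% in hsp-1, 36.8% in hsp-110 and 35.8% in hsp-4, against a mean of 41.2% over pooled summits and 33.7% over upstream windows. Of the called windows 242 had a G and C share at least that of hsp-1, so hsp-1 and hsp-3 stood at opposite ends of the called regions. Hsp70 genes resemble each other in their coding sequence, but the strongest summit windows of all 6 members were unique, with 172 of 172 stretches of 30 bases found once in the genome. In the exon region of hsp-1, 97.1% of these stretches were unique.

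Since the members were chosen by their summits in these lists, their number of summits is a description from which nothing is read. The members had 9 summits in the pooled list (mean 1.5, against 0.443 over all genes), 13 in replicate 1 (mean 2.17, against 0.768) and 18 in replicate 2 (mean 3, against 1.43). Genes with 3 or 4 annotated TSSs, as hsp-3, hsp-4 and hsp-60 have, cover a longer search window, and its part in the count was not tested.

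The wider chaperone network gives the setting, from 7 lists of 83 gene names, of which 79 were annotated under that name. A called summit within 2 kb was found at 4 of the 79 genes (5.06%), the 3 called members and Y22D7AL.10. The genes other than the members thus gave 1 of 73 (1.37%), against 1.46% of all genes. That 1 gene, Y22D7AL.10, has its called summit by the region it shares with hsp-60. No called region apart from those of the members was found at the listed genes, so nothing is read from the 2 shares. In the pooled list the genes other than the members had a summit at 39 of 73 (53.4%), against 33.5% of all genes, and their strongest signals had a median of 26.9, against 22.5. The lists were drawn up with results on heat shock genes in these data known, and these counts are a description.

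Among cytosolic Hsp70 and Hsp110 genes 1 of 6 had a called summit (hsp-1) and 4 of 6 a pooled one. The shares over all genes were 1.46% and 33.5%. The inducible Hsp70 genes F44E5.4 and F44E5.5, which are divergent neighbours, shared 1 pooled summit with a signal of 34.2 at rank 686, lying 171 bp upstream of F44E5.4 and 180 bp upstream of F44E5.5. The inducible gene hsp-70 had none in the pooled list, and its replicate regions ranked 13426 in replicate 1 and 18820 in replicate 2. The pooled signal was 47.3 for hsp-1 and 34.2 for this pair. The replicates differed on that order, since replicate 1 gave 29.6 for hsp-1 and 17.4 for F44E5.4 and F44E5.5. In replicate 2 the same upstream region of hsp-1 had a signal of 15.3 (rank 1412), and its exon region ranked 1033. The pair stood above both there, with a signal of 18.2 and rank 685.

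Of the ER folding genes 1 of 15 had a called summit (hsp-3) and 12 of 15 a pooled one, with a median pooled signal of 30.8. Over all genes 1.46% had a called summit and 33.5% a pooled one. The highest pooled signals after hsp-3 were pdi-3, a protein disulfide isomerase gene, at 38.4 (rank 457) and crt-1, the calreticulin gene, at 34.5 (rank 669). The replicates did not share this order. Replicate 1 had cnx-1 at 23.8 above pdi-3 at 21.7, and replicate 2 had pdi-6 at 18.9 above pdi-3 at 15. The pooled signal of hsp-3 was 103.0, against 38.4 for the next gene of its list.

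Of the mitochondrial chaperones and proteases 2 of 13 had a called summit (hsp-60 and Y22D7AL.10, by the same region) and 5 of 13 a pooled one, with a median of 21.6. That pooled share, 38.5%, was near the 33.5% of all genes, and 1.46% of all genes had a called summit. The protease genes lonp-1 and spg-7 and the prohibitin genes phb-1 and phb-2 had no pooled summit within 2 kb. The cytosolic chaperonin, the CCT ring that folds actin and tubulin and is the cytosolic relative of Hsp60, had a pooled summit at 6 of 8 genes and a called one at 0 of 8. These counts stand beside 33.5% and 1.46% of all genes, and nothing is read from 0 called in so short a list. In the pooled list the signal was 45.9 at hsp-60 and at most 26.9 in this ring, at cct-6. Replicate 2 gave that order too, with 26.4 at hsp-60 and at most 11.6 in the ring, at cct-5. In replicate 1 hsp-60 ranked 2445, below cct-6 with a signal of 21.8 (rank 588), cct-3 with 16.7 (rank 2026) and cct-8 (rank 2427).

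Hsp90 and co-chaperone genes had a called summit at 0 of 12 and a pooled one at 9 of 12, against 1.46% and 33.5% of all genes. In this list lay the values closest to the threshold. The Hsp70 co-chaperone gene bag-1 had 43.4 (rank 286, 174 bp upstream) and hsp-90 had 41.6 (rank 335, 293 bp upstream), against the lowest called signal of 44.4. The replicates differed on their order. In replicate 1 bag-1 ranked 2056 and hsp-90 621, and in replicate 2 bag-1 ranked 533 and hsp-90 826. The genes bag-1, hsp-90, pdi-3, pdi-6, crt-1, cnx-1, hsp-70, the F44E5 pair, cct-3, cct-5, cct-6 and cct-8 were named after their values were seen. So were lonp-1, spg-7, phb-1, phb-2, hsp-12.3 and the stress regulators xbp-1, pek-1, ire-1, atf-6, haf-1, hsf-1 and atfs-1. Small heat shock protein genes had a called summit at 0 of 14 and a pooled one at 5 of 14 (35.7%), near the 33.5% of all genes. The highest was hsp-12.3 at 41.4 with its summit 986 bp downstream. As 1.46% of all genes had a called summit, nothing is read from 0 called genes in lists of this size.

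**Figure D4:**
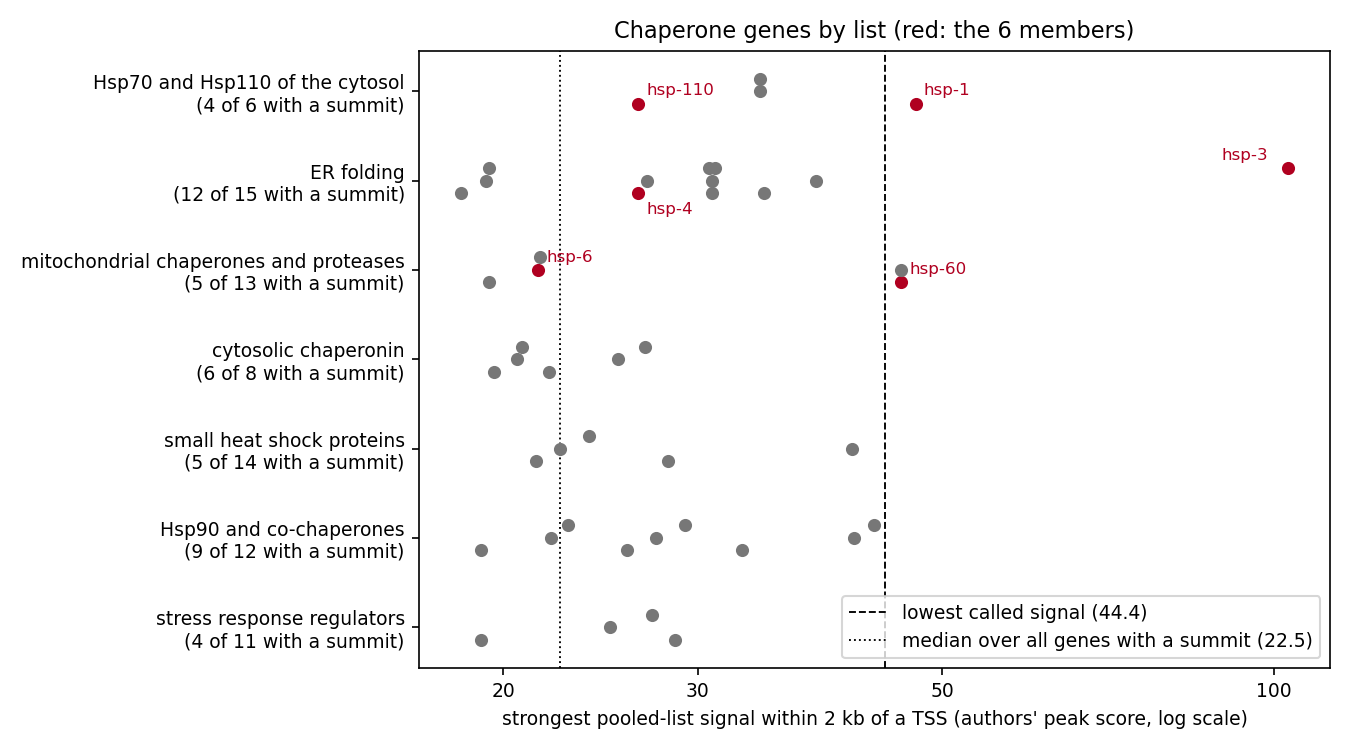
Strongest pooled signal within 2 kb of a TSS, on a log x axis in units of the authors' peak score, for each annotated gene of 7 chaperone lists that had a pooled summit. Red points are the 6 members and grey points other genes, spread vertically for visibility. The dashed line is the lowest called signal, 44.4, and the dotted line the median over all genes with a pooled summit, 22.5. The hsp-3 point at 103.0 stands apart, hsp-1, hsp-60 and Y22D7AL.10 lie just right of the dashed line, and bag-1, hsp-90 and hsp-12.3 just left of it.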

How the data were processed

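The deposited lists are narrowPeak tables on ce11, per the file headers and names: a relaxed list per replicate, one of the pooled replicates, and the list after the IDR threshold. The aligner and peak caller were not named in any source used here. The control is not analysed here, and the labels leave the antibody unsettled (eGFP or UNC-39). The signal column is the authors' peak score, and the deposited −log10 q-value column served as another ranking. Lists on ce10 were not used. Gene starts are those of Ensembl 115 for WBcel235, which is the assembly of ce11, and sequence was read from its RefSeq copy. Every TSS of a gene within 2000 bp of a summit was counted, offsets being negative upstream. Motif searches covered both strands in windows of 100 bp to each side of a summit. Scripts ran in Python 3.11.15 with pandas 2.3.3, numpy 2.4.6 and matplotlib 3.10.9 and were tested on simulated data. No test was made, since both libraries belong to 1 group. Members and lists were chosen with earlier results of these data known. Genes named by rule were the members, genes with the TSS nearest to their called summits, listed chaperones with a called summit, and neighbours in called rank.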

Additional observations from a re-analysis of the deposited data

How the results depend on the processing

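Of 6 members, 3 had a called summit within 2 kb, and 3 also within 1 kb or 5 kb, from any part of a region, from RefSeq gene starts or from the most upstream TSS alone. With 500 bp, or when the nearest TSS alone counted, 2 had one, and with called regions at or above the median signal 1 had one (hsp-3). With each replicate's 267 strongest regions in place of the called list the count was 2 both without replicate 1 (hsp-3 and hsp-60) and without replicate 2 (hsp-1 and hsp-3). Of all genes 292 had a called summit, against 125 within 500 bp, 188 within 1000 bp, 595 within 5 kb, 190 by nearest TSS and 159 with regions at or above the median signal, each changed by the narrower or wider rule itself. Of the chaperone lists 4 genes had one, and 2 to 3 when a replicate was left out, an alternative chosen after seeing the data. Ranked by q-value, hsp-3 stood at 0.337% in replicate 1 and 0.417% in replicate 2, where many regions tie, so the ratio of its rank percents turned direction, at 1.24. With plain ranks, also chosen after seeing the data, the ratio was 7.51 for hsp-1, 4.57 for hsp-3 and 17.3 for hsp-60. No paired analysis was possible because there is 1 group. With no read counts, the precision of a signal is unknown.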

Other observations

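Regulators of the stress responses that act on these chaperones had a called summit at 0 of 11 genes and a pooled one at 4 of 11. The shares over all genes were 1.46% and 33.5%. Of the ER branches, xbp-1 had a pooled signal of 28.6 with its summit 19 bp upstream, pek-1, the PERK kinase gene, had 27.3 with its summit 79 bp upstream, and ire-1 had 19.1 with its summit 1801 bp upstream. The ER regulator gene atf-6 had no pooled summit. For xbp-1 the strongest summit lay 21 bp upstream in replicate 1 and 979 bp downstream in replicate 2. For pek-1 it ranked 7504 in replicate 1 and 1763 in replicate 2. The gene haf-1, a mitochondrial peptide transporter, had 25 with its summit 1228 bp downstream. The heat shock factor gene hsf-1 had no summit in the pooled list and a region at rank 3059 in replicate 2, 197 bp upstream. The mitochondrial factor gene atfs-1 had no pooled summit, with regions at rank 8136 in replicate 1 and 20371 in replicate 2.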
